A study of Mus musculus with 4 samples.

Results

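Glycolysis and the response to hypoxia-inducible factor (HIF) were followed through 35 genes in primary mouse microglia treated with lysophosphatidylserine (LysoPS). The genes encode glucose and lactate transporters, glycolytic enzymes and their regulators, the HIF alpha subunits, proteins that destroy them, and a few classical HIF-responsive transcripts. They were chosen by name, with earlier results of these data known. All 35 were found among the 51826 gene models of the deposited table, with 1 model each. Messenger RNA was sequenced from 4 libraries to ask what LysoPS does to these cells. In 2 libraries the cells were labelled as treated for 4 h with LysoPS, a phospholipid and known ligand of the receptor GPR34. The other 2 were mock, labelled untreated. The labels disagree on this point, since their treatment note speaks of 1 treated replicate where LysoPS is given for 2 samples individually. Samples were grouped by these individual labels, and each LysoPS value rests on them. All cells came from brains of newborn C57BL/6 mice, freed of meninges, grown for 2 weeks and shaken off the culture. The dose of LysoPS was not in the labels. Nothing there says whether replicates came from separate cultures or animals, so the p-values measure only the spread between these libraries, which may be technical.

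Glycolysis splits glucose into pyruvate, and microglia, the macrophages of the brain, are known to raise it when inflammatory receptors are engaged. HIF alpha subunits are transcription factors. In the presence of oxygen, prolyl hydroxylases mark them for VHL and degradation. Spared subunits pair with ARNT and bind hypoxia response elements, with the core letters ACGTG or GCGTG, near glycolytic and hypoxia genes. Much of this control acts on the protein, which was not measured.

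The libraries held 34689045 and 45193959 counts after LysoPS, against 30001098 and 41572340 counts in mock. The 35 genes took 0.888% and 0.791% of them after LysoPS, against 0.708% and 0.677% in mock. Markers of several brain cell types were present. In CPM, read counts scaled to library size, the myeloid gene Csf1r had 458 and 425 CPM after LysoPS and 351 and 320.2 CPM in mock, and C1qa had 456 and 416 CPM after LysoPS and 330.3 and 306 CPM in mock. Of 21 tested gene models of microglia and macrophage markers, 14 were higher after LysoPS and 2 lower. Log2 fold changes of these markers, LysoPS over mock, ran from -0.80 to 3.73. Their sum was 16288 and 14285 CPM after LysoPS, against 6781 and 6219 CPM in mock, of which Lyz2 alone made up 10512 and 9123 CPM after LysoPS and 2929 and 2699.6 CPM in mock. Of 15 astrocyte markers, 12 were lower and 0 higher, with a sum of 6048 and 6843 CPM after LysoPS, against 12337 and 11216 CPM in mock and Gfap at 2679 and 2900.1 CPM after LysoPS and 5970.5 and 5683 CPM in mock. The astrocyte water channel gene Aqp4 had 1230.0 and 1426 CPM after LysoPS and 1682 and 1743 CPM in mock. Fibroblast and mural cell markers summed to 13016 and 13321 CPM after LysoPS, against 15554 and 15656 CPM in mock, with 4 of 12 lower. Among these, Fn1 had 3009 and 3186 CPM after LysoPS and 4623 and 4693 CPM in mock, and Col1a1, which did not pass, had 2732 and 2649.5 CPM after LysoPS and 2937 and 2978 CPM in mock. Endothelial markers summed to 165 and 189.9 CPM after LysoPS, against 342 and 336 CPM in mock, with 2 of 6 tested genes lower and nearly all of the sum from Cdh5, while Pecam1 had 1.70 and 2.10 CPM after LysoPS and 0.0974 and 0.740 CPM in mock and Cldn5 was at 0 in 3 of 4 libraries. Oligodendrocyte markers summed to 383 and 367 CPM after LysoPS, against 382 and 367 CPM in mock, with 5 of 10 higher and 1 lower. Neuronal markers summed to 575 and 792 CPM after LysoPS, against 637 and 730.0 CPM in mock, with 2 of 8 higher. By the test given below, 12.8% of all tested genes were higher and 12.6% lower. In such bulk samples, fewer cells of a type and less RNA per cell cannot be told apart, and the part of these marker differences in the results below was not tested.

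Promoter letters come first, because HIF is known to act through such cores. The 5 genes shown are the 4 with the largest rises among those with a promoter window, and Ldha, a textbook HIF target. Each line is a RefSeq window of GRCm38.p6 from 250 bases before to 50 bases after the gene's start, read 5′ to 3′ on the gene's strand. Capitals mark ACGTG and GCGTG, and CACGT and CACGC for the same cores on the other strand. The windows are chr6:82774405-82774704 (minus strand) for Hk2, chr14:45318523-45318822 (minus strand) for Ero1l, chr13:55021336-55021635 (minus strand) for Hk3, chr11:120948817-120949116 (plus strand) for Slc16a3 and chr7:46845554-46845853 (plus strand) for Ldha.
Hk2: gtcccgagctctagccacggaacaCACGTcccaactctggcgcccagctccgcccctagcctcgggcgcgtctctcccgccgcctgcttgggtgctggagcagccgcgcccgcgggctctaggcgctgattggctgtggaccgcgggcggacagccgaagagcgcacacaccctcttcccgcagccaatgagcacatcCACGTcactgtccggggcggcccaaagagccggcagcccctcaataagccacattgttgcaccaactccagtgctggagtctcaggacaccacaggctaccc
Ero1l: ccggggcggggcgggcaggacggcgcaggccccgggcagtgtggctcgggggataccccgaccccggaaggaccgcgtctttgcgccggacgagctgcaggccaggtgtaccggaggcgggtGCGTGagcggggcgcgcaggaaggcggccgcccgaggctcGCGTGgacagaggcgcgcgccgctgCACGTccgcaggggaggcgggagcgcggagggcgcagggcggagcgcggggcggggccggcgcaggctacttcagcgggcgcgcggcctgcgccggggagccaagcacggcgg
Hk3: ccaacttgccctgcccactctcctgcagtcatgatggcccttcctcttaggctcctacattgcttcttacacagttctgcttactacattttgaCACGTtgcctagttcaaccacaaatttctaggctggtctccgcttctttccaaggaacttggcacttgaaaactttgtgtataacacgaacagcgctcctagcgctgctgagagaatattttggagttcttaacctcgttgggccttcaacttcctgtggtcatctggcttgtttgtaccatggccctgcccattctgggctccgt
Slc16a3: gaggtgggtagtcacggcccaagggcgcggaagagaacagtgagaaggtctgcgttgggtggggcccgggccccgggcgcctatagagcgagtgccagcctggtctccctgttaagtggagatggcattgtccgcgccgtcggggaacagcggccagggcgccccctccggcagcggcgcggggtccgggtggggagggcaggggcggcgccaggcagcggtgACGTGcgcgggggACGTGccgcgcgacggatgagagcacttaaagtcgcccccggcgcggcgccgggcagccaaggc
Ldha: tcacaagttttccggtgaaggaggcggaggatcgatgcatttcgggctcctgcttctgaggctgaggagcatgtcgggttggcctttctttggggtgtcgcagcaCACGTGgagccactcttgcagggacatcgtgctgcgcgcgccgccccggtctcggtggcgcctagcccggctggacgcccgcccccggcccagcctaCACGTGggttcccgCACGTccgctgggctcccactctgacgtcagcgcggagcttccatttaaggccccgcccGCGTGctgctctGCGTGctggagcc

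Hk2 and Slc16a3 held ACGTG at 2 places each, and Ero1l (RefSeq symbol Ero1a) and Hk3 at 1 place each. Ldha held it at 3 places, of which 2 were the palindrome CACGTG, which reads as ACGTG on both strands and is also an E-box. Another window of Ldha, chr7:46846832-46847131, is not shown and held no ACGTG. Ero1l and Ldha held GCGTG at 2 places each. A window was found for 32 of the 35 genes, by symbol or synonym, and not for Slc2a3, Epas1 and Ndrg1. ACGTG stood in a window of 23 of these 32 genes (71.9%). The share was 27.5% of the 12481 tested genes with a window and 21.8% of all 27025 genes with a RefSeq window. GCGTG stood in 20 of 32 (62.5%), against 52.6% of tested and 35.15% of all genes. By the outcome given next, ACGTG was found in 10 of 10 risers with a window, in the faller Pfkm, which has 4 windows, and in 12 of the 21 that did not pass. Among all tested genes with a window the share was 29.3% of those that rose, 23.6% of those that fell and 27.95% of the rest. The risers had 1.4 windows a gene on average, against 1.25 for all tested genes that rose. A match describes letters in a window and is not a binding site. The 35 genes were picked as glycolytic and HIF-responsive genes, near which such cores are known. A higher share than over all genes may thus be built into the choice, and that comparison cannot speak to LysoPS. Whether risers differed from the rest of the 35 was not tested.

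After LysoPS, 11 of the 35 genes rose, 2 fell and 22 did not pass an adjusted p of 0.05 in edgeR's quasi-likelihood test with Benjamini-Hochberg adjustment over all 19057 tested genes. The calls came to 31.4% higher and 5.71% lower. Over all tested genes 25.5% were called, 12.8% higher and 12.6% lower. All 35 had enough counts to be tested. Their median log2 fold change, LysoPS over mock, was 0.19, against -0.013 over all tested genes, and single values ran from -1.21 (Epas1) to 1.37 (Hk2). Both LysoPS libraries lay above both mock libraries for 17 genes and below them for 9. Over all tested genes 67.0% had groups that did not overlap, 32.5% with LysoPS above and 34.5% with LysoPS below. The count of risers was 7 without mock replicate 1 and 6 without mock replicate 2, each of them also among the 11. On deposited TPM, a level scaled for transcript length, 8 genes rose and 5 fell, so 61.5% of calls were higher, against 84.6% from counts. Over all tested genes 1353 rose and 3088 fell on that scale, 30.5% of calls higher against 50.4% from counts. The log2 fold change of a gene on deposited TPM minus that from counts had a median of -0.16 over all tested genes. With the TPM columns rescaled to remove this shift, 9 of the 35 rose and 2 fell, beside 2065 and 1920 of all tested genes.

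**Figure D1:**
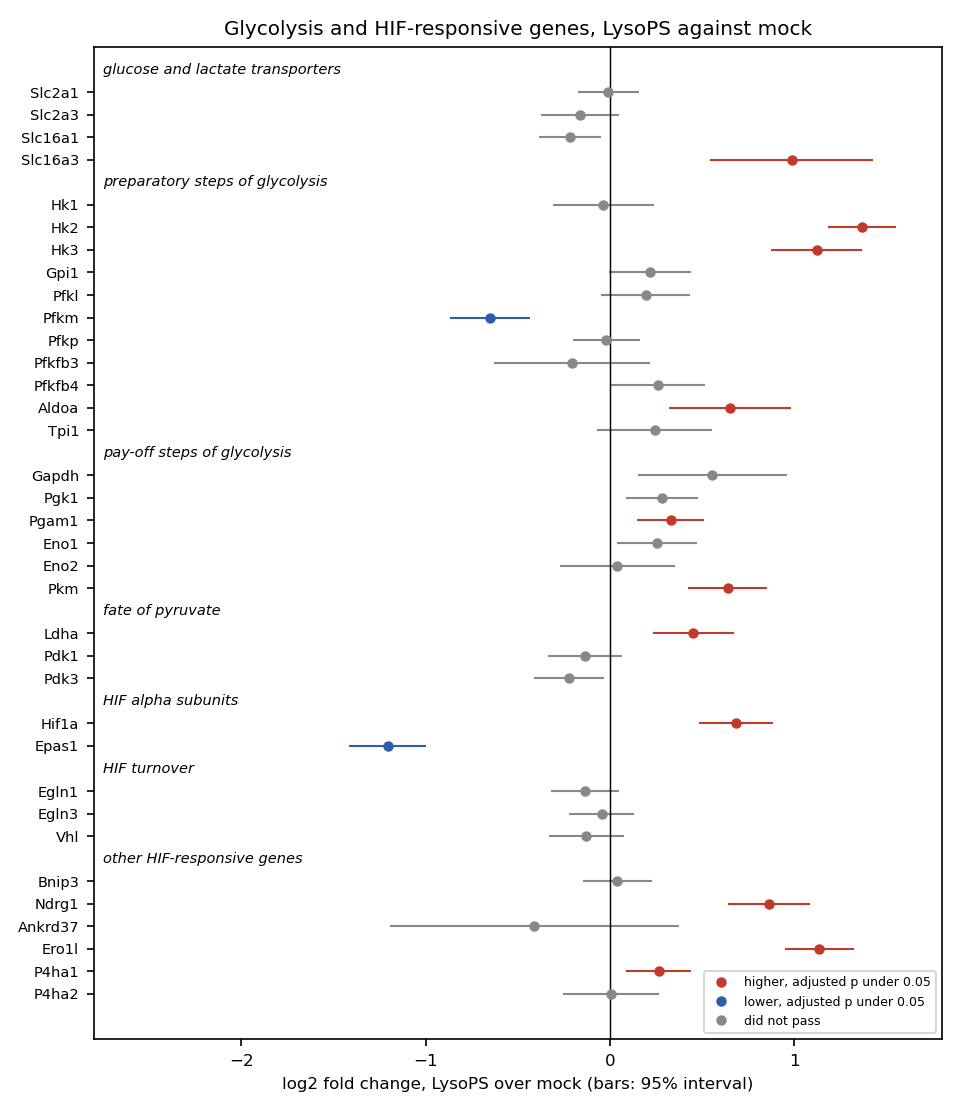
Log2 fold change of LysoPS over mock (horizontal axis) for the 35 genes, grouped by role (vertical axis), with 95% intervals from the edgeR fit of 2 against 2 libraries. Hk2 at 1.37 and Epas1 at -1.21 are the ends of the range. All 6 pay-off genes lie above 0, Eno2 at 0.039 with an interval that spans 0.

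Of the 4 glucose and lactate transporters, 1 rose (25%) and none fell, against 12.8% and 12.6% of all tested genes. Slc16a3, which exports lactate from glycolytic cells, had 70.1 and 49.4 CPM after LysoPS and 30.5 and 29.8 CPM in mock (log2 fold change 0.98 ± 0.17 SE, adjusted p = 0.0161). LysoPS replicate 1 was the higher of its pair, and both stood above mock. The call was lost when mock replicate 2 was left out (0.97, adjusted p = 0.0572). The transcript length implied by deposited counts and FPKM for Slc16a3 varied by 1.62 times between libraries, and its TPM overlapped, at 55.5 and 41.7 TPM after LysoPS, against 44.6 and 28.3 TPM in mock. It was not called on rescaled TPM (0.59, adjusted p = 0.191). Slc2a1, the ubiquitous glucose transporter, had 104 and 105 CPM after LysoPS and 106 and 104 CPM in mock, with overlapping groups and a 95% interval of -0.18 to 0.16 for its log2 fold change. The high-affinity glucose transporter Slc2a3 had 30.2 and 32.1 CPM after LysoPS and 34.4 and 35.3 CPM in mock (interval -0.37 to 0.047, adjusted p = 0.210). Slc16a1, which carries lactate and pyruvate either way, had 228 and 243 CPM after LysoPS and 267 and 279.9 CPM in mock (-0.22, adjusted p = 0.0710). Its groups did not overlap, and with the stricter filter of 5 CPM it passed as lower (-0.24, adjusted p = 0.0452).

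Hexokinases trap glucose in the cell in the first step, and 2 of the 3 rose, where 12.8% of all tested genes rose. Hk2, the inducible, mitochondria-associated form (chromosome 6, 82725025 to 82774454, minus strand, GRCm38), had 94.0 and 95.9 CPM after LysoPS and 37.4 and 36.2 CPM in mock. Its log2 fold change was 1.37 ± 0.073 (SE, adjusted p = 0.000635), the largest rise among the 35 genes. Hk3, the hexokinase of myeloid cells, had 97.0 and 84.3 CPM after LysoPS and 42.6 and 40.8 CPM in mock (1.12 ± 0.097, adjusted p = 0.00233). Both groups were tight for Hk2 and apart for both genes. Beside Hk3 stand the myeloid markers, with a median log2 fold change of 0.54 and a range from -0.80 to 3.73. Hk1, the constitutive form, had 74.6 and 87.1 CPM after LysoPS and 87.1 and 78.6 CPM in mock and overlapping groups (interval -0.31 to 0.24).

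The make-up of hexokinase transcripts differed between the groups. By TPM, Hk1 held 25.4% and 31.9% after LysoPS, against 48.5% and 47.2% in mock, of the summed level of the 3 genes. Hk3 held 49.8% and 42.7% after LysoPS, against 35.2% and 36.2% in mock, and Hk2 24.9% and 25.4% after LysoPS, against 16.3% and 16.5% in mock. Hk3 was thus the most abundant after LysoPS, and Hk1 in mock. With counts divided by annotated gene length instead, the directions were the same, but Hk3 led in both groups, with mean shares of 49.2% after LysoPS and 41.7% in mock. With 2 libraries a group these shares carry no test.

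**Figure D2:**
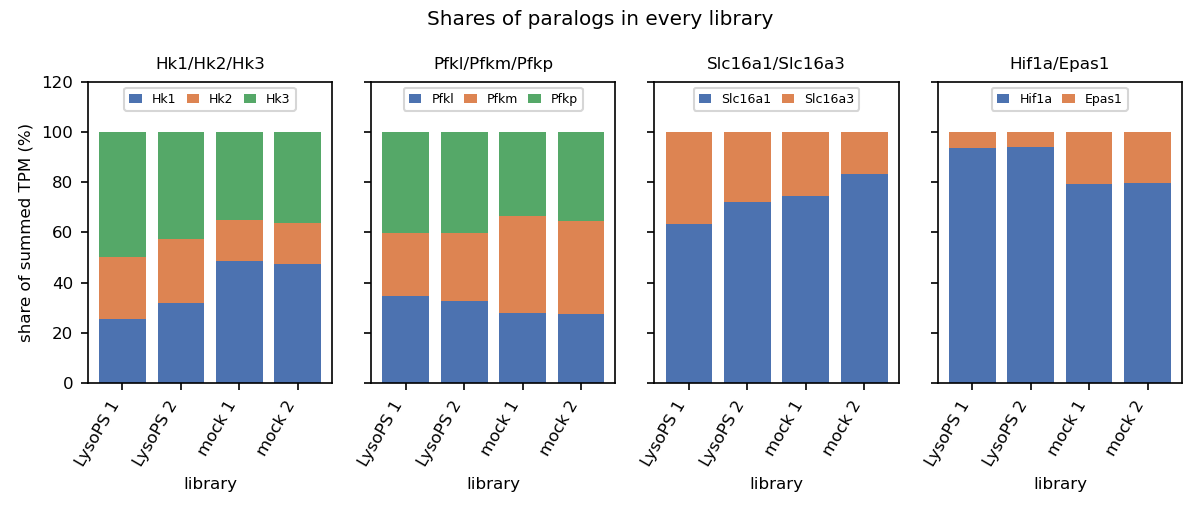
Share of the summed deposited TPM (vertical axis, percent) held by each paralog in every library (horizontal axis), for hexokinases, phosphofructokinases, lactate transporters and HIF alpha subunits. Epas1 takes 6.50% and 6.19% after LysoPS, against 20.9% and 20.2% in mock, of the HIF alpha level.

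Phosphofructokinase commits sugar to glycolysis, and its muscle-type subunit fell. Pfkm had 56.0 and 58.5 CPM after LysoPS and 94.6 and 85.3 CPM in mock (-0.65 ± 0.085, adjusted p = 0.00685), with no overlap. Beside it stand the astrocyte markers, of which 12 of 15 fell, with a median of -0.87. The liver-type Pfkl had 93.4 and 83.2 CPM after LysoPS and 80.8 and 73.7 CPM in mock (interval -0.047 to 0.43), and the platelet-type Pfkp had 112 and 115 CPM after LysoPS and 119 and 111 CPM in mock (interval -0.20 to 0.16). Neither passed. Exons of Pfkp share 748 bases with Pitrm1 on the other strand, so reads there may not have been told apart. By TPM, Pfkm held 25.2% and 26.8% after LysoPS, against 38.6% and 36.8% in mock, of the phosphofructokinase level. With counts divided by annotated gene length, its mean share was 44.1% after LysoPS and 57.2% in mock. The direction was the same, but Pfkm then led in both groups, where by TPM Pfkp led after LysoPS.

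Enzymes that set the activator of phosphofructokinase, fructose 2,6-bisphosphate, gave no call. Pfkfb3 had 55.9 and 60.2 CPM after LysoPS and 56.0 and 77.9 CPM in mock (interval -0.63 to 0.22). Mock replicate 2 stood above the other libraries, and without it the value was 0.053 in place of -0.21. Its implied length varied by 1.47 times, and on deposited TPM the value was 0.073. Pfkfb4 had 16.4 and 15.9 CPM after LysoPS and 13.7 and 13.2 CPM in mock, without overlap (interval 0.0069 to 0.52, adjusted p = 0.120).

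Between these steps and the pay-off, aldolase rose. Aldoa, which cleaves fructose 1,6-bisphosphate, had 861 and 663 CPM after LysoPS and 478 and 494 CPM in mock (0.65 ± 0.13, adjusted p = 0.0225). LysoPS replicate 1 was well above replicate 2, and both were above mock. The call was lost when mock replicate 1 was left out (0.63, adjusted p = 0.0793) and when mock replicate 2 was (0.67, adjusted p = 0.0663). The isomerases did not pass. Gpi1 had 473 and 424 CPM after LysoPS and 406 and 365 CPM in mock (0.22, interval -0.0056 to 0.44), and Tpi1 had 396 and 340.0 CPM after LysoPS and 341 and 281 CPM in mock (0.24, interval -0.070 to 0.55), with groups apart for Gpi1 and overlapping for Tpi1.

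The 6 genes of the pay-off steps, which regain energy and end in pyruvate, all had positive values, that of Eno2 at only 0.039. As higher, 2 passed (33.3%), against 12.8% of all tested genes, whose median value was -0.013. Pkm, the pyruvate kinase gene of the last step, had the highest deposited TPM of the 35 genes, with 1575 and 1448 TPM after LysoPS, against 1121 and 1078 TPM in mock, if Gapdh is taken without its near-identical copies at other loci. In counts it stood at 1894 and 1659 CPM after LysoPS and 1181 and 1102 CPM in mock (0.64 ± 0.084, adjusted p = 0.00707), without overlap. Counts per gene do not separate its splice forms, and 767 exon bases are shared with Gm49759 on the same strand. The mutase gene Pgam1 had 379 and 363 CPM after LysoPS and 309 and 282 CPM in mock (0.33 ± 0.071, adjusted p = 0.0285). Its call was lost with mock replicate 1 left out (0.40, adjusted p = 0.0788), with mock replicate 2 left out (0.26, adjusted p = 0.189), and with LysoPS replicate 1 left out (0.30, adjusted p = 0.0602). On deposited TPM it was 0.16 (adjusted p = 0.119) and on rescaled TPM 0.32 (adjusted p = 0.0428), both with limma.

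The kinase gene Pgk1 had 791 and 712 CPM after LysoPS and 638 and 598 CPM in mock (0.28, interval 0.088 to 0.48, adjusted p = 0.0510). The main enolase gene Eno1 had 872 and 766 CPM after LysoPS and 714 and 659 CPM in mock (0.26, interval 0.037 to 0.47, adjusted p = 0.0899). Neither overlapped. With LysoPS replicate 1 left out Pgk1 was 0.20 and Eno1 0.16, the lowest values of the runs that left out a library. The highest were 0.36 for Pgk1 and 0.35 for Eno1, with LysoPS replicate 2 left out. DESeq2 called both (adjusted p = 0.0164 for Pgk1 and 0.0491 for Eno1). With limma on rescaled TPM neither passed (adjusted p = 0.0842 for Pgk1 and 0.136 for Eno1). Neuronal enolase Eno2 had 22.2 and 18.4 CPM after LysoPS and 19.7 and 19.9 CPM in mock, with overlap (interval -0.27 to 0.35).

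Gapdh, often used as a reference transcript, had 881 and 639 CPM after LysoPS and 542 and 493 CPM in mock, without overlap (0.55 ± 0.16, interval 0.15 to 0.96, adjusted p = 0.0601). It passed with DESeq2 (0.56, adjusted p = 0.00206) and with no filter on low counts (0.56, adjusted p = 0.0142). With limma it did not pass by voom (0.53, adjusted p = 0.0670) or on rescaled TPM (0.56, adjusted p = 0.0894). Its value leaned on single LysoPS libraries, at 0.30 with LysoPS replicate 1 left out and 0.77 with LysoPS replicate 2 left out. The annotation holds 91 gene models at other loci whose transcripts match Gapdh at 95% identity or more over at least 300 bases, of which 83 are processed pseudogenes. These copies held 64201 and 65600 counts after LysoPS, against 40537 and 51649 in mock. Gapdh itself (chromosome 6, 125161715 to 125166467, minus strand) held 29495 and 27935 counts after LysoPS and 16703 and 21336 counts in mock. The copies thus took 68.5% and 70.1% of the pooled counts after LysoPS and 70.8% and 70.8% in mock, so the level of the gene is uncertain. With the copies summed in, Gapdh stood at 2801 and 2141 CPM after LysoPS and 1856 and 1687 CPM in mock (0.48, adjusted p = 0.0593). For 8 other genes the copies took at most 8.26% (Eno1, LysoPS replicate 1), and summing copies changed no call among the 35.

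Set side by side per length, on the rescaled TPM scale, the steps differed widely in level. Hexokinase summed to 143 and 143 after LysoPS, against 89.9 and 82.7 in mock, a ratio of means of 1.66. Phosphofructokinase summed to 158 and 155 after LysoPS, against 175 and 165 in mock (ratio 0.922), and of the 11 enzymes it alone had a ratio under 1. These were the lowest steps in either group. The ratio was 1.56 for aldolase, 1.55 for pyruvate kinase and 1.49 for glyceraldehyde-3-phosphate dehydrogenase without its copies. The sums hold only genes among the 35, so aldolase is Aldoa alone. With Aldoc added, aldolase stood at 1266 and 990.0 after LysoPS, against 901 and 886 in mock, and its ratio was 1.26. With Ldhb added to Ldha the ratio was 1.15, in place of 1.37. For hexokinase, mutase, enolase and pyruvate kinase the added paralogs gave ratios of 1.64, 1.25, 1.18 and 1.55 in that order. Among the 35 genes, the other 6 enzymes had ratios between 1.17 and 1.37. Triosephosphate isomerase was the enzyme whose libraries overlapped between groups.

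**Figure D3:**
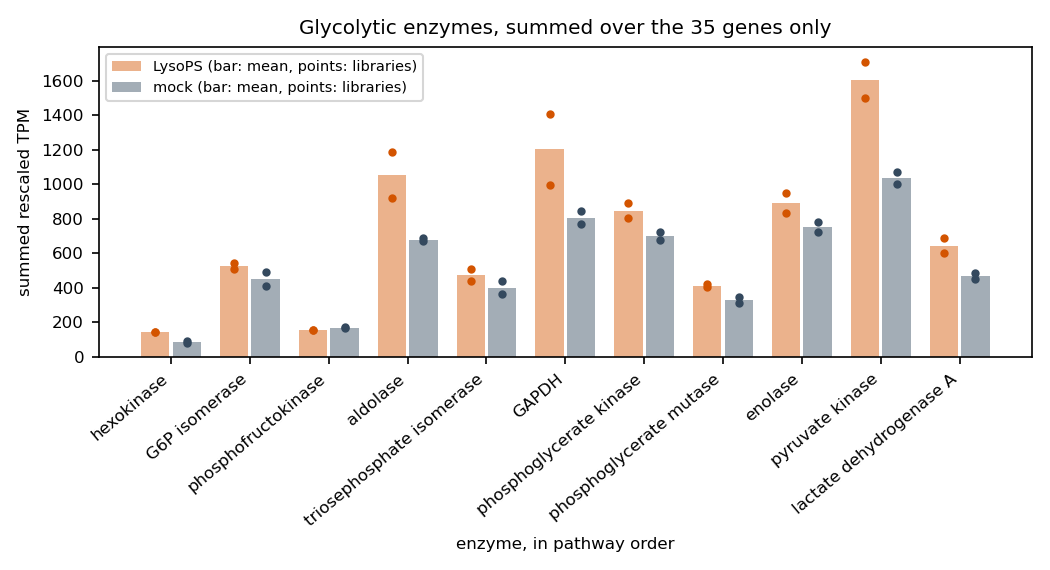
Summed rescaled TPM (vertical axis) of the genes for each enzyme, in pathway order (horizontal axis), with bars for the mean of 2 libraries and points for single libraries. Phosphofructokinase is the step with the lower LysoPS bar (ratio 0.922). Gapdh is plotted without its copies, and paralogs outside the 35 genes, such as Aldoc, are left out.

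At the fork after pyruvate, Ldha rose. It encodes the lactate dehydrogenase subunit that favours lactate and had 536 and 476 CPM after LysoPS and 387 and 353 CPM in mock, without overlap (0.45 ± 0.086, adjusted p = 0.0200). The call was lost with mock replicate 1 left out (0.52, adjusted p = 0.0528) and with mock replicate 2 left out (0.39, adjusted p = 0.107). Pdk1 and Pdk3, kinases that switch off pyruvate dehydrogenase and so keep pyruvate out of the citrate cycle, did not pass and lay lower after LysoPS in both libraries. Pdk1 had 67.9 and 72.9 CPM after LysoPS and 75.1 and 79.6 CPM in mock (interval -0.34 to 0.066), and Pdk3 had 39.0 and 39.2 CPM after LysoPS and 44.4 and 46.8 CPM in mock (interval -0.41 to -0.032, adjusted p = 0.0901).

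The HIF alpha subunits went opposite ways. Hif1a (chromosome 12, 73901375 to 73947530, plus strand) had 262 and 291 CPM after LysoPS and 167 and 177 CPM in mock (0.68 ± 0.079, adjusted p = 0.00497). Epas1, which encodes the HIF2 alpha subunit known from endothelium (chromosome 17, 86753907 to 86833410, plus strand), had 22.7 and 24.2 CPM after LysoPS and 55.3 and 53.0 CPM in mock (-1.21 ± 0.082, adjusted p = 0.00127), the largest fall of the 35 genes. The groups were apart for both genes, and both calls held with any library left out. By TPM, Hif1a held 93.5% and 93.8% after LysoPS, against 79.1% and 79.8% in mock, of the summed level of the pair. The endothelial and astrocyte marker sums, which were lower, stand beside the fall of Epas1. Of 6 tested endothelial markers, Cdh5 (147 and 169.8 CPM after LysoPS and 306 and 296 CPM in mock) and the receptor gene Kdr (9.89 and 12.03 CPM after LysoPS and 29.5 and 30.7 CPM in mock) fell. The other 4 did not pass, at -1.02 for Tek, -0.19 for Flt1, 0.54 for Emcn and 2.09 for Pecam1. Groups did not overlap for Tek, lower after LysoPS, or for Emcn and Pecam1, higher after LysoPS, all at under 3 CPM.

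**Figure D4:**
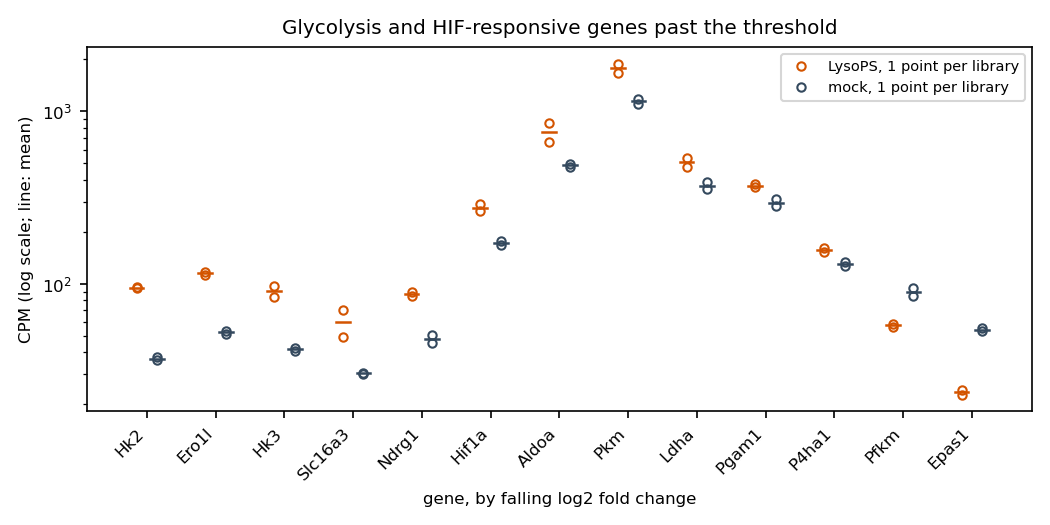
Normalised counts in CPM (vertical axis, log scale) in every library for the 13 genes past the threshold (horizontal axis), with a line at the mean of 2 libraries. The LysoPS and mock points are apart for each of the 13, and those of Epas1, at 22.7 and 24.2 CPM after LysoPS, are the lowest.

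None of the 3 genes for HIF turnover passed, where 25.5% of all tested genes were called. The prolyl hydroxylase gene Egln1 had 68.5 and 66.7 CPM after LysoPS and 76.1 and 72.5 CPM in mock (interval -0.32 to 0.049). Egln3, a hydroxylase gene that HIF itself is known to induce, had 92.8 and 88.4 CPM after LysoPS and 94.1 and 92.9 CPM in mock (interval -0.22 to 0.13). Vhl, whose product tags hydroxylated HIF for destruction, had 68.2 and 67.4 CPM after LysoPS and 77.5 and 70.7 CPM in mock (interval -0.33 to 0.075). Both LysoPS libraries lay below both mock libraries for all 3, as they did for 34.5% of all tested genes. Egln1 was called lower on deposited TPM (-0.30, adjusted p = 0.0473), the scale on which the median of all tested genes was lower.

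Of 6 other HIF-responsive genes, 3 rose (50%) and none fell, against 12.8% and 12.6% of all tested genes. Ero1l, an oxidase that makes disulfide bonds in the endoplasmic reticulum, had 112 and 117 CPM after LysoPS and 53.4 and 51.3 CPM in mock (1.13 ± 0.073, adjusted p = 0.00107). Ndrg1, a gene induced by hypoxia and other stress, had 89.1 and 84.9 CPM after LysoPS and 50.5 and 45.4 CPM in mock (0.86 ± 0.087, adjusted p = 0.00354). Both had tight replicates and groups apart. P4ha1, a subunit of the collagen prolyl hydroxylase, had 160.2 and 153 CPM after LysoPS and 133 and 127 CPM in mock (0.26 ± 0.069, adjusted p = 0.0466). That call was lost with mock replicate 1 left out (0.30, adjusted p = 0.171), with mock replicate 2 left out (0.23, adjusted p = 0.280), with LysoPS replicate 1 left out (0.22, adjusted p = 0.103), and on rescaled TPM (0.17, adjusted p = 0.257).

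The remaining 3 did not pass. P4ha2, the paralog of P4ha1, had 23.1 and 20.6 CPM after LysoPS and 21.3 and 22.2 CPM in mock, with overlap (interval -0.25 to 0.26). The mitophagy receptor gene Bnip3 had 58.7 and 56.3 CPM after LysoPS and 55.2 and 56.8 CPM in mock, also with overlap (interval -0.15 to 0.23). Ankrd37 was the lowest of the 35, with 85 and 66 counts after LysoPS and 91 and 104 counts in mock (interval -1.19 to 0.37). Its exons overlap Lrp2bp and Ufsp2 on the other strand, and its counts allow no firm statement in either direction.

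Genes of the same pathways outside the 35 were counted by list. Of 24 other glycolysis and sugar entry genes, 20 were tested, 1 rose (5%) and 5 fell (25%), with a median of -0.053. Over all tested genes 12.8% rose and 12.6% fell. Aldoc, the aldolase gene of astrocytes and also one of the astrocyte markers above, had 88.8 and 83.4 CPM after LysoPS and 274 and 229.9 CPM in mock (-1.55 ± 0.11, adjusted p = 0.00125). Ldhb, for the lactate dehydrogenase subunit that favours pyruvate, had 89.9 and 87.3 CPM after LysoPS and 136 and 130.0 CPM in mock (-0.59 ± 0.069, adjusted p = 0.00520). Aldolase and lactate dehydrogenase genes thus included both risers and fallers. The insulin-responsive transporter Slc2a4 fell at a low level, with 2.30 and 2.36 CPM after LysoPS and 5.65 and 5.53 CPM in mock (-1.26), and the sugar transporter Slc2a6 rose, with 23.7 and 20.4 CPM after LysoPS and 12.9 and 10.3 CPM in mock (0.93 ± 0.15, adjusted p = 0.0132). With mock replicate 2 left out, 3 genes of the list fell.

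Of 12 genes for the entry of pyruvate into mitochondria, 1 rose (8.33%) and 4 fell (33.3%), with a median of -0.068. The shares over all tested genes were 12.8% and 12.6%. The kinase genes Pdk2, with 27.1 and 27.1 CPM after LysoPS and 45.9 and 44.0 CPM in mock (-0.73), and Pdk4, with 5.17 and 6.50 CPM after LysoPS and 12.5 and 12.1 CPM in mock (-1.07), fell, as did the carboxylase gene Pcx (-0.65). Dld, a subunit gene of pyruvate dehydrogenase, rose (0.34, adjusted p = 0.0200), and lost its call with mock replicate 1 left out (0.31, adjusted p = 0.153) or mock replicate 2 left out (0.36, adjusted p = 0.119). Of 8 genes of the pentose phosphate pathway, which draws on glucose 6-phosphate to make NADPH, 4 rose (50%) and none fell, with a median of 0.53. All 8 had groups apart with LysoPS higher. Among all tested genes, 12.8% rose and 32.5% had groups apart with LysoPS higher. G6pdx, the entry enzyme, had 246 and 222 CPM after LysoPS and 163 and 152 CPM in mock (0.57 ± 0.080, adjusted p = 0.00853). Pgd, the next dehydrogenase on this path, had 489.9 and 428 CPM after LysoPS and 309 and 287 CPM in mock (0.62). Taldo1 (0.70) and H6pd (0.49) rose as well. With mock replicate 2 left out 2 genes of the list were called, and G6pdx (0.52, adjusted p = 0.0545) and H6pd (0.45, adjusted p = 0.0941) were not.

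Of 11 other genes for HIF subunits and oxygen sensing, 5 rose (45.5%) and 1 fell (9.09%), against 12.8% and 12.6% of all tested genes. The median of the list was 0.13. Siah2, a ubiquitin ligase that acts on prolyl hydroxylases, had 20.4 and 20.95 CPM after LysoPS and 11.8 and 12.6 CPM in mock (0.76 ± 0.10, adjusted p = 0.00691). The hydroxylase gene Egln2 had 79.2 and 66.0 CPM after LysoPS and 52.0 and 46.2 CPM in mock (0.56 ± 0.12, adjusted p = 0.0272), and its call was lost with mock replicate 1 left out (adjusted p = 0.0606), mock replicate 2 left out (0.126) and LysoPS replicate 1 left out (0.0528). Hif3a rose at a low level, with 3.14 and 3.25 CPM after LysoPS and 1.27 and 0.994 CPM in mock (1.51). Its implied length varied by 2.92 times, and it was not called on deposited TPM (0.29, adjusted p = 0.465). Arnt2, a partner of the alpha subunits in neural cells, fell (-0.64), with 125 and 139 CPM after LysoPS and 210.1 and 202 CPM in mock. Risers in this list numbered 2 with mock replicate 1, mock replicate 2 or LysoPS replicate 1 left out, and 3 with LysoPS replicate 2 left out.

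Of 34 other known HIF-responsive genes, 10 rose (29.4%), 4 fell (11.8%) and 20 did not pass, with a median of 0.060. Over all tested genes 12.8% rose and 12.6% fell. Adm, which encodes the peptide hormone adrenomedullin, had 41.7 and 41.6 CPM after LysoPS and 4.48 and 3.84 CPM in mock (3.33 ± 0.12, adjusted p = 0.000335). The carbonic anhydrase gene Car12 had 16.6 and 12.1 CPM after LysoPS and 3.60 and 3.28 CPM in mock (2.06). Both changes were larger than those of any of the 35. Lox, which cross-links collagen, rose too (0.66), with 815 and 869 CPM after LysoPS and 521 and 542 CPM in mock. A pair chosen after their values were seen went the other way or did not pass. Car9, the carbonic anhydrase gene most used as a hypoxia marker, fell (-1.45, adjusted p = 0.00327), with 4.66 and 4.58 CPM after LysoPS and 13.7 and 11.5 CPM in mock. Vegfa, the angiogenic factor, had 48.6 and 55.3 CPM after LysoPS and 65.0 and 63.7 CPM in mock (-0.31, adjusted p = 0.0643). With mock replicate 1 left out 6 genes of the list rose and 1 fell, and with mock replicate 2 left out 7 rose and 2 fell.

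Of 10 regulators known to feed into Hif1a or glycolysis, 5 rose (50%) and none fell, against 12.8% and 12.6% of all tested genes. The median of the list was 0.22. Nfkb1, an NF-kappaB subunit gene, had 121 and 123 CPM after LysoPS and 52.4 and 51.3 CPM in mock (1.23 ± 0.069, adjusted p = 0.000745). The growth regulator Myc had 36.9 and 34.3 CPM after LysoPS and 19.9 and 16.0 CPM in mock (0.99 ± 0.13, adjusted p = 0.00728). Groups were apart for both, and replicates lay close together for Nfkb1. For Myc the value was 1.15 with mock replicate 1 left out and 0.84 with mock replicate 2 left out. The NF-kappaB subunit gene Rela (0.51) and the cytokine-signal transducer Stat3 (0.30) rose by less. Rela lost its call with mock replicate 2 left out (adjusted p = 0.0781), and Stat3 with mock replicate 1 (0.105), mock replicate 2 (0.206) or LysoPS replicate 1 (0.0557) left out. Risers in this list then numbered 3, 2 and 3 in that order.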

How the data were processed

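Polyadenylated RNA was sequenced paired-end, per the labels' protocols. FastQC 0.11.2, Trimmomatic 0.36, HISAT2, StringTie and build GRCm38 are named in the submitters' processing notes. Parameters, annotation release, counting program and strandedness are not given in the sources used here. Reads of overlapping genes therefore may not be separated. The deposited counts were whole numbers per gene model, not normalized. The deposited TPM served for levels per length. The deposited FPKM served, with the counts, to derive the transcript length implied in each library.

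Counts were fitted with edgeR 4.0.16 in R 4.3.3, using filterByExpr (minimum count 10), TMM factors (0.966 to 1.04) and a quasi-likelihood F test (two-sided, 2 residual degrees of freedom). P-values were Benjamini-Hochberg adjusted over 19057 genes with a threshold of 0.05. SE is the log2 fold change divided by the root of F. Rescaled TPM uses TMM factors of the TPM columns. Lengths, overlaps and copies came from GENCODE M21, in which 29 of the 35 genes had the same coordinates. The 35 genes and all lists were chosen with earlier results of these data known. All 35 are named, with up to 4 called genes of smallest p from each other list whose groups do not overlap, and 7 markers. Not everything this rule takes is reported here. Endothelial markers, Car9 and Vegfa were added after their values were seen. Alternatives were DESeq2 1.42.0, its size factors, limma 3.58.1 (voom, and log2 of TPM plus 1), no filter, 5 CPM in 2 libraries, a null of 1.5-fold, a replicate block and leaving out each library. Rescaled TPM, summed copies and the paralogs added to their enzyme were alternatives chosen after seeing the data.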

Additional observations from a re-analysis of the deposited data

How the results depend on the processing

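Depth was at least 30001098 counts a library, and 2 libraries a group limit the precision. Of the 35 genes, 6 to 14 were higher and 2 lower when a library was left out. Over all tested genes 1161 to 2768 were higher and 986 to 2588 lower, and of the other pathway genes 14 to 23 were higher (26 with all libraries) and 9 to 16 lower (14 with all). Hk2, Hk3, Ero1l and Epas1 kept their calls under each alternative run. Against a null of 1.5-fold, 3 of the 35 were higher and 1 lower, with 683 and 381 of all genes and 5 and 3 of the other pathway genes. On deposited TPM 5 of the 35 were lower, 1353 of all genes were higher, and 16 other pathway genes were higher. Log2 fold changes that crossed 0 belonged to genes that did not pass. Slc2a1 was 0.0058 with DESeq2 size factors, 0.0013 with DESeq2, 0.014 on rescaled TPM and -0.020 to 0.0024 with a library left out. With a library left out Hk1 was -0.15 to 0.068, Pfkp -0.069 to 0.031, Pfkfb3 -0.43 to 0.053, Eno2 -0.11 to 0.17 and P4ha2 -0.081 to 0.088. On deposited TPM Pfkl was -0.0025, Pfkfb3 0.073, Eno2 -0.079, Bnip3 -0.14 and P4ha2 -0.12. On rescaled TPM Pfkp was 0.10 and Pfkfb3 0.24. P4ha2 was -0.015 with the stricter filter and -0.0042 with voom. The causes were not tested. With the replicate number as a block, 16 of the 35 were higher and 3 lower, adding Eno1, Gapdh, Gpi1, Pgk1, Slc16a1 and Tpi1, while of all tested genes 2797 were higher and 2636 lower, against 2447 and 2407 without the block. Libraries with the same number deviated together at a correlation of 0.078 across all tested genes. Among genes of the glycolytic steps, Hk3, Gpi1, Pfkl, Tpi1, Gapdh, Pgk1, Pgam1, Eno1, Pkm and Ldha had higher CPM in replicate 1 in both groups. Hk1, Hk2, Pfkm, Pfkp, Aldoa and Eno2 did not. The reason was not tested, and the labels tie the numbers to no shared culture or day.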
